A study of Mus musculus with 48 samples.

Results

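Dbp, Tef and Hlf encode the 3 PAR bZIP transcription factors, and Nfil3 encodes the bZIP factor that competes with them for the same DNA sites. They were taken by gene symbol from the count table, which made 4 genes of the 23732 in it, and all 4 are among the 14836 genes that passed the filter on low counts. In mouse genome build mm9 the table places Dbp (ENSMUSG00000059824) at chr7:52960458-52965525, Tef (ENSMUSG00000022389) at chr15:81632851-81657291, Hlf (ENSMUSG00000003949) at chr11:90197849-90252231 and Nfil3 (ENSMUSG00000056749) at chr13:53062578-53076442. The samples were livers of 48 C57BL/6 mice, all male and 4 to 6 months old, from which poly-A RNA was sequenced. In 24 mice, the KO group, Bmal1 f/f was combined with EsrCre, a tamoxifen-inducible Cre that is active in all tissues. The 24 WT mice, called controls in the titles, were littermates with Bmal1 f/f and no Cre. All mice received 5 mg of tamoxifen a day by gavage for 5 days, and 7 days after the last dose were kept for 36 h in constant darkness before livers were taken in darkness every 4 h over 20 h. This gave 4 KO and 4 WT mice at each of 6 times, which the labels name ZT0, ZT4, ZT8, ZT12, ZT16 and ZT20. The floxed alleles, tamoxifen and darkness were common to both genotypes, every KO mouse and no WT mouse carried Cre, and an effect of Cre itself cannot be told apart from the loss of Bmal1.

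DBP, TEF and HLF activate transcription from D-box elements, and NFIL3 (also called E4BP4) binds the same elements and represses. The core clock places the activators and the repressor at opposite phases: CLOCK and BMAL1 act on E-box elements to drive Dbp, while REV-ERB repressors act on RORE elements to set the phase of Nfil3. In liver the PAR bZIP factors are known for passing the time of day on to genes of drug, heme and lipid metabolism, and mice that lack all of them have low expression of several cytochrome P450 genes. E-boxes that have been studied in Dbp lie in part inside its introns. Bmal1 is listed as Arntl in the count table.

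In KO liver none of the 4 genes had a 24 h rhythm that passed the test, whereas in WT liver the 3 activators peaked one after another and Nfil3 peaked last, all within 12 h. Group means of all 4 in KO stayed between the highest and the lowest WT group mean. Dbp and Tef were higher in KO than in WT at ZT0 and ZT20 and lower at ZT8 and ZT12, by up to 4.45 ± 0.96 (Dbp, ZT0) and 1.85 ± 0.26 (Tef, ZT0) on the log2 scale (± SE, n = 4 mice per group). Nfil3 went the other way at ZT8, where it was higher in KO by 1.63 ± 0.28 on the log2 scale, and Hlf was lower in KO at ZT12 by 0.56 ± 0.12. Averaged over the 6 times, KO and WT did not differ past the threshold for any of the 4.

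**Figure D1:**
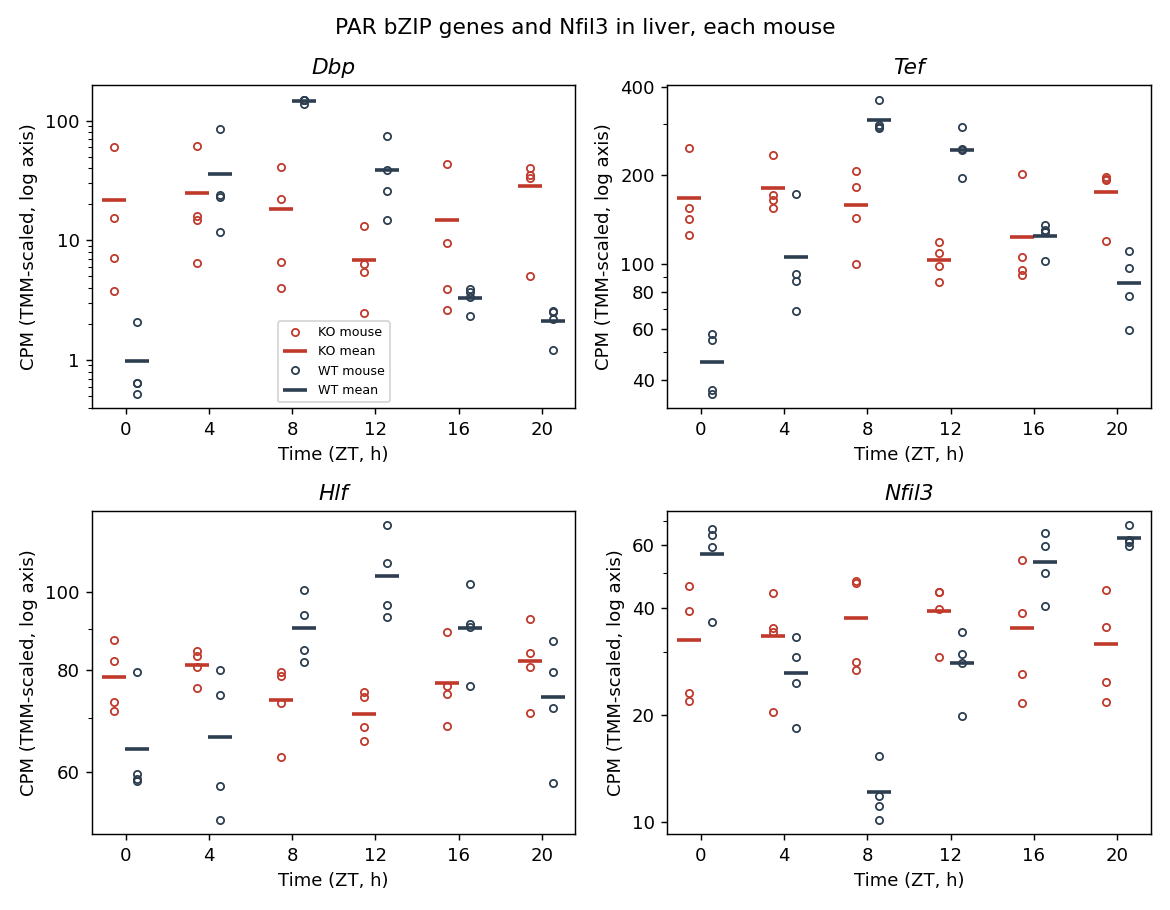
CPM (read counts scaled to a common depth with TMM factors, log axis) of Dbp, Tef, Hlf and Nfil3 in each mouse against time of day in h. Circles are single mice (4 per genotype and time), bars are group means, KO is left of WT. KO Dbp runs between 2.46 and 61.8 CPM over the 6 times, and WT Dbp between 0.522 and 149.9 CPM.

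The 250 bases before the annotated start of Dbp, of both annotated starts of Tef, and of Nfil3 are printed because these 3 genes had larger differences between the genotypes at single times than Hlf, and at ZT8 Nfil3 differed in the direction opposite to Dbp and Tef. They come from RefSeq on build GRCm38.p6, 5′ to 3′ on the strand of the gene, and all 4 members had an entry. Capitals mark a match to an E-box (CACGTG) or to a RORE core (TAGGTCA, which reads TGACCTA where it lies on the opposite strand). Dbp lies on the plus strand at chr7:45704997-45705246, Tef on the plus strand at chr15:81802423-81802672 and chr15:81811164-81811413, and Nfil3 on the minus strand at chr13:52981040-52981289.
Dbp: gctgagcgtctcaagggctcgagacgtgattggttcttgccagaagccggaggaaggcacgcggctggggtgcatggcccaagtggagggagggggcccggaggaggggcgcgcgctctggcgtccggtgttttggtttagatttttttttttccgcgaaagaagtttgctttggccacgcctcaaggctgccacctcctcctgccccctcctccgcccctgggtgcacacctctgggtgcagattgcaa
Tef, upstream start: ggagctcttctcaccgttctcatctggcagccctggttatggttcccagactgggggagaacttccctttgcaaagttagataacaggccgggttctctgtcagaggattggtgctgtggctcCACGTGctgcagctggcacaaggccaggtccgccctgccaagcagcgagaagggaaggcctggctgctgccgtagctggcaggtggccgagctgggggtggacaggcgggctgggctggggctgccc
Tef, downstream start: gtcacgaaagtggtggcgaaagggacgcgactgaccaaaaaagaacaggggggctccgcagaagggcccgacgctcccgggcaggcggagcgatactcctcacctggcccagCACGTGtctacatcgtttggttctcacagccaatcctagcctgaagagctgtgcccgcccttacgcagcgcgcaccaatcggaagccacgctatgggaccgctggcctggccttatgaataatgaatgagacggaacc
Nfil3: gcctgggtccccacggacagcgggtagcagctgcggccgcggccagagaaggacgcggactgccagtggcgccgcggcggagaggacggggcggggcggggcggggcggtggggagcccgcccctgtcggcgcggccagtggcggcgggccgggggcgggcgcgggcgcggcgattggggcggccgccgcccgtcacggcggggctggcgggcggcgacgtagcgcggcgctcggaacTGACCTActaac

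Both strands were searched for the E-box, the RORE core and the D-box (TTANGTAA), and none of these 3 words overlaps another in the printed windows. The E-box letters begin 127 bases before the upstream start and 138 bases before the downstream start of Tef. The RORE core letters lie on the strand opposite to Nfil3, beginning 12 bases before its start. Of 32851 RefSeq windows of 250 bases, 6.02% held the E-box, 2.23% the RORE core and 2.06% the D-box. The windows of Dbp and Hlf held none of the 3 words. For Hlf, unlike the other windows, the bases after the annotated start were not found in a GENCODE vM21 transcript of the gene. The place of the Hlf window is therefore less certain. These matches describe letters in short windows and no binding was measured.

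Dbp, the founding PAR bZIP activator and the most strongly cycling of the 4, was compared between genotypes at each time. At ZT0 the KO mice had 3.78, 7.07, 15.3 and 60.2 CPM, against 0.522, 0.642, 0.648 and 2.08 CPM in WT mice. At ZT4 the KO mice had 6.48, 14.8, 15.98 and 61.8 CPM, against 11.7, 23.0, 23.8 and 84.4 CPM in WT mice. Every KO mouse lay above every WT mouse at ZT0, whereas the groups overlapped at ZT4. At ZT8, the WT peak, the KO mice had 3.99, 6.58, 22.1 and 40.6 CPM, against 136.6, 147.7, 148.0 and 149.9 CPM in WT mice. At ZT12 the KO mice had 2.46, 5.45, 6.40 and 13.1 CPM, against 14.8, 25.9, 38.4 and 74.7 CPM in WT mice. All KO mice lay below all WT mice at both of these times. At ZT16 the KO mice had 2.62, 3.93, 9.57 and 43.5 CPM, against 2.33, 3.35, 3.69 and 3.93 CPM in WT mice. At ZT20 the KO mice had 5.00, 33.0, 34.9 and 40.03 CPM, against 1.21, 2.19, 2.51 and 2.58 CPM in WT mice. The groups overlapped at ZT16 and were apart at ZT20, with KO higher.

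The tests on Dbp followed these ranges. Differences are KO minus WT in log2 with their SE, tested with edgeR's quasi-likelihood test on counts, and p-values are adjusted by Benjamini-Hochberg over the 14836 genes and called under 0.05. Dbp was higher in KO at ZT0, by 4.45 ± 0.96 (adjusted p = 0.0115), and at ZT20, by 3.73 ± 0.89 (adjusted p = 0.0239). It was lower in KO at ZT8, with a difference of -2.99 ± 0.80 (adjusted p = 0.0153), and at ZT12, with -2.49 ± 0.81 (adjusted p = 0.0376). The difference was -0.53 ± 0.75 at ZT4 (adjusted p = 0.75) and 2.16 ± 0.84 at ZT16 (adjusted p = 0.126), neither past the threshold. The ZT16 difference was 0.69 without KO mouse 26 (adjusted p = 0.753) and 1.31 in limma with voom weights (adjusted p = 0.561). Averaged over the times it was 0.72 ± 0.33 (adjusted p = 0.185), although Dbp averaged 19.1 ± 18.5 CPM in KO mice and 37.7 ± 54.0 CPM in WT mice (SD, n = 24 each): the mean of log2 differences and the ratio of mean CPM have opposite directions here.

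Several Dbp calls rested on single libraries or on the tool. The ZT0 call was lost without KO mouse 46 (3.14, adjusted p = 0.0986) and in limma with voom weights (3.88, adjusted p = 0.14). The ZT8 call was lost without KO mouse 9 (-2.66, adjusted p = 0.0664) or KO mouse 10 (-2.72, adjusted p = 0.0539). The ZT12 call was lost without WT mouse 17 (-1.95, adjusted p = 0.147), KO mouse 18 (-2.47, adjusted p = 0.0718), KO mouse 20 (-2.21, adjusted p = 0.0989), WT mouse 22 (-2.49, adjusted p = 0.0553) or KO mouse 24 (-2.40, adjusted p = 0.0669), and with body weight as a covariate (-2.38, adjusted p = 0.0815). The ZT20 call was lost in limma with voom weights (3.42, adjusted p = 0.12). It was also lost without WT mouse 33 (3.75, adjusted p = 0.0931), 35 (3.84, adjusted p = 0.0718), 36 (3.82, adjusted p = 0.0696) or 40 (3.54, adjusted p = 0.0783), and without KO mouse 38 (3.65, adjusted p = 0.0673) or 39 (3.52, adjusted p = 0.0733). At ZT4 the sign turned without WT mouse 8 (0.35, adjusted p = 0.881). In all 4 of the called groups the KO and WT ranges themselves did not overlap.

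Tef, the second activator, differed in the same direction as Dbp at the 4 times at which both were called (ZT0, ZT8, ZT12 and ZT20), with smaller log2 differences. At ZT0 the KO mice had 124.9, 141.7, 154.1 and 247.3 CPM, against 36.0, 37.2, 54.8 and 57.4 CPM in WT mice. At ZT4 the KO mice had 154.6, 164.3, 171.9 and 234.3 CPM, against 68.9, 87.5, 92.2 and 173.0 CPM in WT mice. The groups were apart at ZT0, and at ZT4 the highest WT mouse lay inside the KO range. At ZT8 the KO mice had 100.0, 143.5, 181.8 and 207.5 CPM, against 289.5, 291.2, 296.4 and 362.2 CPM in WT mice. At ZT12 the KO mice had 86.9, 98.2, 108.4 and 118.2 CPM, against 195.7, 243.8, 244.9 and 292.9 CPM in WT mice. The KO mice were below all WT mice at both times. At ZT16 the KO mice had 91.3, 95.1, 105.2 and 201.3 CPM, against 101.9, 128.7, 130.3 and 134.9 CPM in WT mice. At ZT20 the KO mice had 119.7, 193.1, 193.9 and 197.7 CPM, against 59.4, 77.7, 96.7 and 110.7 CPM in WT mice. The groups overlapped at ZT16 and were apart at ZT20.

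In the edgeR fit Tef was higher in KO at ZT0, by 1.85 ± 0.26 (adjusted p = 9.44e-05), and at ZT20, by 1.03 ± 0.25 (adjusted p = 0.0302). It was lower in KO at ZT8, by a difference of -0.97 ± 0.25 (adjusted p = 0.0127), and at ZT12, with -1.25 ± 0.26 (adjusted p = 0.00101). The difference was 0.78 ± 0.25 at ZT4 (adjusted p = 0.0682) and -0.0081 ± 0.25 at ZT16 (adjusted p = 0.991). Averaged over the times Tef differed by 0.24 ± 0.10 (adjusted p = 0.146), with 151.5 ± 47.7 CPM in KO mice and 152.7 ± 98.9 CPM in WT mice (SD, n = 24 each). The ZT8 call was lost without KO mouse 9 (-0.81, adjusted p = 0.0712) or WT mouse 16 (-0.88, adjusted p = 0.053). The ZT20 call was lost without any one of WT mice 33, 35 and 40 or KO mice 34, 38 and 39, with differences of 0.89 to 1.09 and adjusted p of 0.0617 to 0.12. The ZT4 difference passed the threshold with DESeq2 (adjusted p = 0.0362), limma with voom weights (adjusted p = 0.0456), total-count scaling (adjusted p = 0.0474), or without WT mouse 8 (1.13, adjusted p = 0.0145), and without that mouse the average over times passed too (0.30, adjusted p = 0.0468).

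Hlf, the third activator, varied least. At ZT12 the KO mice had 65.4, 68.2, 74.2 and 75.2 CPM, against 93.1, 96.3, 108.7 and 120.7 CPM in WT mice. At ZT8 the KO mice had 62.6, 72.9, 78.7 and 79.8 CPM, against 81.9, 84.9, 93.6 and 100.5 CPM in WT mice. The groups did not overlap at either time, and they overlapped at the other 4 times, where KO mice ranged from 68.4 to 92.6 CPM and WT mice from 52.4 to 102.2 CPM. The edgeR test called ZT12, with a difference of -0.56 ± 0.12 (adjusted p = 0.002), and not ZT8, with -0.30 ± 0.12 (adjusted p = 0.143). Group means at ZT0 were 78.4 ± 7.51 CPM in KO mice and 64.1 ± 10.4 CPM in WT mice (SD, n = 4 each), a log2 difference of 0.29 ± 0.12 (adjusted p = 0.214). Averaged over the times the difference was -0.059 ± 0.050 (adjusted p = 0.519). Without KO mice 20 and 21 of ZT12 and 43 and 44 of ZT0, the 4 KO libraries that earlier work on these data placed farthest from their groups, the ZT12 difference was -0.49 (adjusted p = 0.0563).

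Nfil3, the repressor, had its WT trough where Dbp had its WT peak. At ZT8 the KO mice had 26.8, 28.2, 46.8 and 47.4 CPM, against 10.1, 11.1, 11.8 and 15.3 CPM in WT mice. At ZT20 the KO mice had 21.8, 24.7, 35.2 and 44.9 CPM, against 59.7, 61.2, 61.8 and 68.1 CPM in WT mice. Every KO mouse was above every WT mouse at ZT8 and below every WT mouse at ZT20. At ZT0 the KO mice had 21.8, 23.1, 39.02 and 46.1 CPM, against 36.3, 59.0, 63.9 and 66.6 CPM in WT mice. At ZT4 the KO mice had 20.3, 34.1, 34.96 and 43.9 CPM, against 18.3, 24.6, 29.1 and 33.0 CPM in WT mice. The groups overlapped at ZT0, through WT mouse 48 at 36.3 CPM, and at ZT4. At ZT12 the KO mice had 29.1, 39.6, 44.1 and 44.1 CPM, against 19.8, 27.9, 29.5 and 34.2 CPM in WT mice. At ZT16 the KO mice had 21.6, 25.9, 38.5 and 54.3 CPM, against 40.4, 50.0, 59.7 and 64.6 CPM in WT mice. Both of these times overlapped.

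Nfil3 was higher in KO at ZT8, by 1.63 ± 0.28 (edgeR, adjusted p = 0.000184), a call that stood in the DESeq2 and limma fits and without each mouse in turn. At ZT20 its difference was -0.99 ± 0.27 (adjusted p = 0.0598), which missed the threshold. The other differences were -0.80 ± 0.27 at ZT0 (adjusted p = 0.111), 0.34 ± 0.27 at ZT4 (adjusted p = 0.509), 0.49 ± 0.27 at ZT12 (adjusted p = 0.234) and -0.61 ± 0.27 at ZT16 (adjusted p = 0.184). The average over times was 0.011 ± 0.11 (adjusted p = 0.966), with 34.8 ± 10.2 CPM in KO mice and 39.8 ± 20.4 CPM in WT mice (SD, n = 24 each). The ZT20 difference passed with DESeq2 (-0.98, adjusted p = 0.0185), limma with voom weights (-1.04, adjusted p = 0.0414), total-count scaling (-1.03, adjusted p = 0.044) and without KO mouse 37 (-1.20, adjusted p = 0.0305). It passed as well without KO mouse 26 (-0.99, adjusted p = 0.0486) or KO mouse 30 (-0.98, adjusted p = 0.0461), both of ZT16, whose absence changes only the shared estimate of the spread and the scaling.

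**Figure D2:**
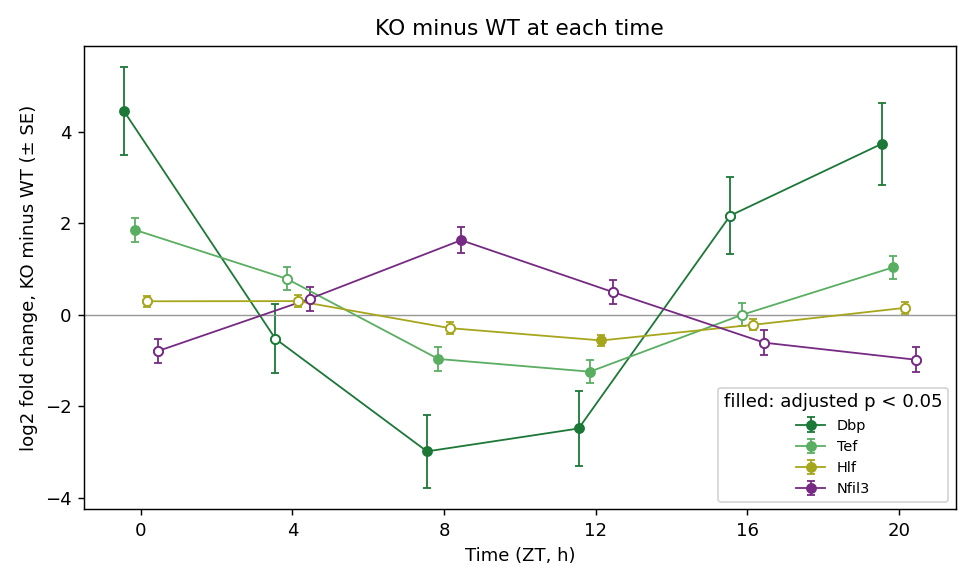
KO minus WT log2 fold change (± SE, from 4 KO and 4 WT mice) of Dbp, Tef, Hlf and Nfil3 against time of day in h, with filled points where the adjusted p is under 0.05. Dbp and Tef are above 0 at ZT0 and ZT20 and below 0 at ZT8 and ZT12, and Nfil3 stands at 1.63 at ZT8 and -0.99 at ZT20.

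Counted over the 4 members, 2 were called higher in KO at ZT0 (Dbp and Tef), where 1.06% of all tested genes were called higher. At ZT8 the same activators were called lower and Nfil3 higher, against 4.08% of genes lower and 3.78% higher. At ZT12 all 3 activators were called lower, against 5.12% of genes. Of 7 hepatocyte markers tested, 3 were called lower in KO at ZT12 as well (Tat by -0.88, Cps1 by -0.51 and Hnf4a by -0.32, adjusted p of 0.0288, 0.0383 and 0.0436), and 1 at ZT8 (Tdo2 by -0.94, adjusted p = 0.0103), and their part in the differences of the activators was not tested. At ZT20 Dbp and Tef were called higher, against 0.647% of genes. With total counts and no scaling factors these shares of all genes were 0.741% higher at ZT0, 2.74% lower and 4.93% higher at ZT8, 6.31% lower at ZT12 and 0.519% higher at ZT20, with the median log2 difference of all genes at -0.102 for ZT0, and the members named here kept their calls. At ZT4 and ZT16, where 3.79% and 5.37% of genes were called in either direction, edgeR called 0 of the 4 at each time, and at each time 2 of them had an unadjusted p under 0.05. DESeq2 called Tef at ZT4 and none of them at ZT16. Over the average of the 6 times, for which 8.86% of genes were called, both edgeR and DESeq2 called 0 of the 4, with 2 at an unadjusted p under 0.05 in edgeR (Dbp and Tef). KO and WT ranges did not overlap for 2 of the 4 at ZT0, all 4 at ZT8, all 3 activators at ZT12, and Dbp, Tef and Nfil3 at ZT20, against 6.35%, 15.4%, 10.5% and 9.85% of all tested genes.

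A curve with a 24 h period was fitted to each genotype. Its amplitude is given as the log2 distance between its mean and its peak, with SE over 24 mice. Dbp had an amplitude of 0.75 ± 0.36 in KO mice and 3.47 ± 0.37 in WT mice. Tef had 0.37 ± 0.12 in KO mice and 1.23 ± 0.12 in WT mice. Hlf had 0.092 ± 0.049 in KO mice and 0.36 ± 0.049 in WT mice. Nfil3 had 0.15 ± 0.11 in KO mice and 1.12 ± 0.12 in WT mice. The amplitudes of all 4 were thus smaller in KO, and the medians over all tested genes were 0.114 in KO mice and 0.182 in WT mice.

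The WT curves put the members in an order. Dbp peaked at ZT8.36 ± 0.37 h, Tef at ZT10.5 ± 0.37 h, Hlf at ZT12.5 ± 0.51 h and Nfil3 at ZT20.0 ± 0.41 h. Tef thus peaked 2.18 h, Hlf 4.14 h and Nfil3 11.6 h after Dbp. In the edgeR rhythm test WT Dbp had an adjusted p of 2.95e-09, Tef 3.71e-10, Hlf 4.58e-07 and Nfil3 4.65e-09, and 48.1% of all tested genes passed. By amplitude Dbp stood 4th of 14836 genes in WT, Tef 123rd, Nfil3 158th and Hlf 2594th. In KO mice edgeR and DESeq2 called 0 of the 4 rhythmic, where edgeR called 0.984% of genes. The adjusted p in KO mice was 0.335 for Dbp, 0.136 for Tef, 0.408 for Hlf and 0.627 for Nfil3, with Tef at an unadjusted p of 0.0135, so peak times are not given for KO.

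The difference in rhythm between KO and WT was itself tested. All 4 members passed, where 22.8% of all tested genes did: the adjusted p was 4.76e-07 for Dbp, 4.76e-08 for Tef, 2.06e-05 for Hlf and 1.79e-06 for Nfil3. The test of whether KO minus WT varied between the 6 times passed for all 4 as well, with an adjusted p of 1.04e-05 for Dbp, 1.35e-07 for Tef, 0.00055 for Hlf and 1.16e-05 for Nfil3, against 20.7% of genes. These 8 calls stood in every alternative fit run and without each mouse in turn.

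**Figure D3:**
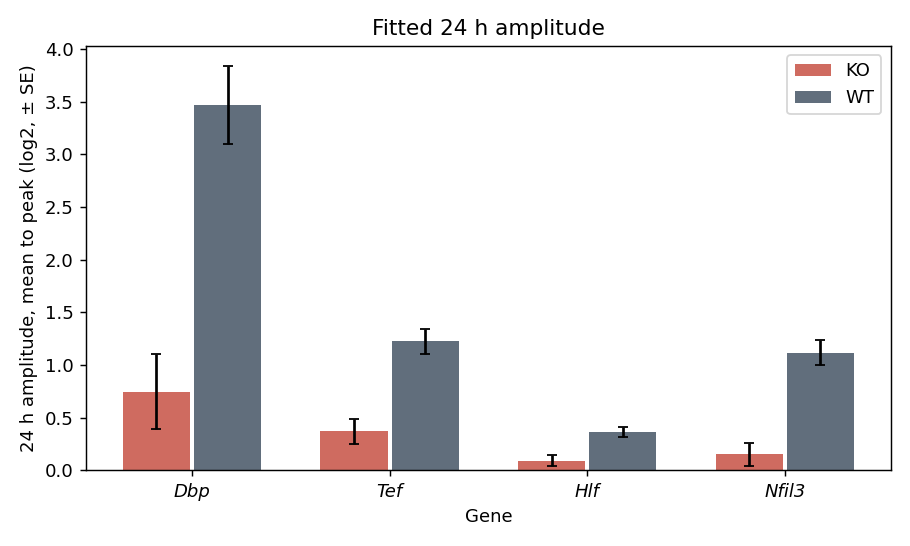
Fitted 24 h amplitude (log2, mean of the curve to its peak, ± SE) of the 4 genes in KO and WT mice, 24 per genotype. KO bars stand between 0.092 (Hlf) and 0.75 (Dbp), WT bars between 0.36 (Hlf) and 3.47 (Dbp).

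The balance of activator to repressor was followed in each mouse as log2 CPM of the activator minus log2 CPM of Nfil3, without a test. For Dbp it averaged -1.29 ± 2.19 in KO mice and -5.96 ± 1.26 in WT mice at ZT0 (SD, n = 4 each, as below). At ZT8 it averaged -1.53 ± 1.97 in KO mice and 3.60 ± 0.25 in WT mice. From ZT0 to ZT8 the mean balance thus rose in WT mice from -5.96 to 3.60, whereas in KO mice it went from -1.29 to -1.53, a step within the SD. At ZT4 it was -0.87 ± 1.81 in KO mice and 0.081 ± 1.55 in WT mice, and at ZT12 -2.73 ± 1.04 in KO mice and 0.24 ± 1.31 in WT mice. At ZT16 it was -2.01 ± 2.34 in KO mice and -3.99 ± 0.54 in WT mice, and at ZT20 -0.47 ± 1.83 in KO mice and -4.90 ± 0.57 in WT mice. From the lowest to the highest mouse the balance covered 5.94 log2 units over the 24 KO mice and 10.7 over the 24 WT mice. Within 1 KO group it covered 2.39 (ZT12) to 5.35 (ZT16) log2 units, and within 1 WT group 0.61 (ZT8) to 3.70 (ZT4).

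For Tef the balance with Nfil3 lay between 0.75 and 3.52 in KO mice and between -0.84 and 4.83 in WT mice. For Hlf it lay between 0.33 and 2.04 in KO mice and between -0.23 and 3.07 in WT mice. The WT highest group was ZT8 for both, at 4.68 ± 0.12 for Tef and 2.91 ± 0.16 for Hlf (SD, n = 4). The KO groups all overlapped one another for Hlf, with means between 0.87 (ZT12) and 1.43 (ZT20). Since gene length enters a ratio of reads, the level of such a balance has no meaning between genes, but its movement over time does.

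**Figure D4:**
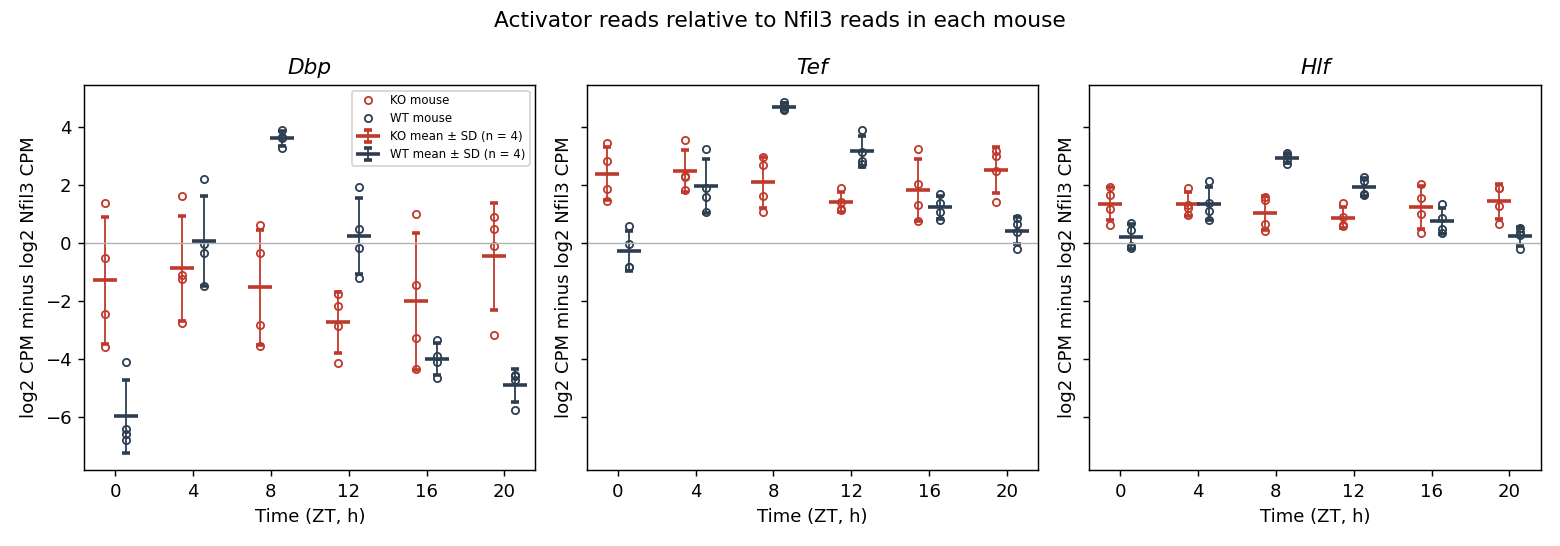
Log2 CPM of Dbp, Tef and Hlf minus log2 CPM of Nfil3 in each mouse against time of day in h (circles), with group mean ± SD (n = 4 mice), KO left of WT. For Dbp, KO mice spread between -4.34 and 1.60, and WT mice between -6.78 and 3.88.

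Ordered by mean level, every KO group of each member overlapped its neighbour in the order. Farther apart in the order, Tef in the KO mice of ZT12 (up to 118.2 CPM) lay below all KO mice of ZT0, ZT4 and ZT20 (119.7 CPM or more), and Hlf in the KO mice of ZT12 (up to 75.2 CPM) lay below all KO mice of ZT4 (76.1 CPM or more). For Dbp in KO the order was ZT20 (28.2 ± 15.8 CPM), ZT4, ZT0, ZT8, ZT16 and ZT12 (6.86 ± 4.498 CPM, SD, n = 4), a ratio of 4.12 between the highest and lowest mean. In WT it was ZT8 (145.5 ± 6.02 CPM), ZT12, ZT4, ZT16, ZT20 and ZT0 (0.973 ± 0.740 CPM), a ratio of 149.6, and the ranges were apart between ZT8 and ZT12 and between ZT4 and ZT16. The ratio for Tef was 1.76 in KO (ZT4 highest, ZT12 lowest) and 6.68 in WT (ZT8 highest, ZT0 lowest), with WT ranges apart between ZT12 and ZT16 and between ZT20 and ZT0. For Hlf it was 1.16 in KO (ZT20 highest, ZT12 lowest) and 1.63 in WT (ZT12 highest, ZT0 lowest), and each Hlf group overlapped its neighbour in WT also. For Nfil3 it was 1.24 in KO (ZT12 highest, ZT20 lowest) and 5.19 in WT (ZT20 highest, ZT8 lowest), with WT ranges apart between ZT16 and ZT12 and between ZT4 and ZT8.

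Levels of different genes were set side by side per kilobase of exon, using exon lengths from a newer annotation (GENCODE vM21) than the counts, which makes them approximate. Over all times Tef averaged 19.3 ± 6.06 CPM per kb in KO mice and 19.4 ± 12.6 in WT mice (SD, n = 24 each, also for the genes that follow). Nfil3 averaged 17.2 ± 5.05 CPM per kb in KO mice and 19.7 ± 10.1 in WT mice, and Hlf 11.6 ± 1.13 in KO mice and 12.2 ± 2.69 in WT mice. Dbp averaged 6.39 ± 6.18 CPM per kb in KO mice and 12.6 ± 18.05 in WT mice. Per length Dbp was thus the lowest of the 4 on average in KO mice, while its highest WT group mean, 48.6 CPM per kb, was above the highest WT group mean of Tef (39.4), Nfil3 (30.9) and Hlf (15.7).

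KO mice of the same time differed from each other in Dbp more than WT mice did in these samples, though not past the threshold. The SD of log2 CPM within groups was 1.49 in KO mice and 0.76 in WT mice for Dbp, and 0.48 in KO mice and 0.31 in WT mice for Nfil3. It was 0.39 in KO mice and 0.35 in WT mice for Tef, and 0.13 in KO mice and 0.21 in WT mice for Hlf. The medians over all tested genes were 0.221 in KO mice and 0.190 in WT mice. A limma test of absolute deviations from the group median called 0 of the 4 (adjusted p of 0.73 for Dbp, 0.969 for Tef, 0.821 for Hlf and 0.758 for Nfil3), with 2 at an unadjusted p under 0.05 (0.00733 for Dbp and 0.00829 for Nfil3). That test called 0.0135% of all genes wider in KO.

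Dbp was set side by side in mice that shared a cage and a killing time, without a comparison to mice of different cages. The 4 cages that held a pair of KO mice had 14.8 and 6.48 CPM (ZT4), 3.99 and 6.58 CPM (ZT8), 9.57 and 43.5 CPM (ZT16), and 3.78 and 15.3 CPM (ZT0). The 4 cages that held a pair of WT mice had 23.8 and 23.0 CPM (ZT4), 136.6 and 148.0 CPM (ZT8), 3.35 and 3.93 CPM (ZT16), and 0.522 and 2.08 CPM (ZT0). The KO pairs were 0.71 to 2.18 log2 units apart and the WT pairs 0.053 to 1.88, and the difference between these was not tested. In the 11 cages that held both genotypes the KO mouse had less Dbp than its WT cage mate in all 5 cages of ZT8 and ZT12, and more in all 6 cages of ZT16, ZT20, ZT0 and ZT4. The ZT16 cage was the closest, at 2.62 CPM in the KO mouse and 2.33 CPM in the WT mouse.

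Within groups some pairs of members moved together from mouse to mouse, and others moved in opposite directions. Deviations of log2 CPM from the group mean were correlated over 24 KO mice and over 24 WT mice separately, with permutation tests (two-sided, 100000 permutations within groups) and Benjamini-Hochberg adjustment over 20 relations. The p-values printed are those of Pearson's r, unless stated for rho. In KO mice Dbp and Tef had r = 0.94 and rho = 0.92 (permutation p = 1e-05, the smallest that these permutations can give, adjusted p = 0.0001), with deviations of the same sign in 22 of 24 mice. Mice with more Dbp therefore also had more Tef. Dbp and Nfil3 had r = -0.85 and rho = -0.86 in KO mice (permutation p = 2e-05, adjusted p = 0.000133), with opposite signs in 22 of 24 mice. Tef and Nfil3 had r = -0.77 and rho = -0.78 (permutation p = 0.00012, adjusted p = 0.000433), with opposite signs in 20 of 24 mice. KO mice with more of the 2 activators had less of the repressor. Without the 2 mice farthest from the median of the first-named gene, r was 0.92, -0.84 and -0.74. Within the 3 cage sets (ZT4 with ZT8, ZT12 with ZT16, ZT20 with ZT0), each of 8 KO mice, r was 0.94, 0.89 and 0.98 for Dbp and Tef, -0.98, -0.75 and -0.84 for Dbp and Nfil3, and -0.89, -0.68 and -0.75 for Tef and Nfil3.

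Hlf was tied less closely to the others in KO mice, with r = 0.44 to Dbp (rho = 0.43, permutation p = 0.0706, adjusted p = 0.0882), 0.50 to Tef (rho = 0.43, permutation p = 0.0482, adjusted p = 0.0643) and -0.49 to Nfil3 (rho = -0.45, permutation p = 0.0436, adjusted p = 0.0623). All 3 of these relations passed the threshold without KO mouse 5 (r = 0.55, 0.58 and -0.61), KO mouse 41 (r = 0.53, 0.58 and -0.59) or KO mouse 46 (r = 0.59, 0.66 and -0.56). The second passed without KO mouse 21 (r = 0.55), and the third without KO mouse 7 (r = -0.54). Without the 2 farthest mice they were 0.46, 0.54 and -0.38, and within the cage sets 0.39, 0.64 and 0.33 to Dbp, 0.60, 0.65 and 0.29 to Tef, and -0.27, -0.83 and -0.38 to Nfil3.

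In WT mice Dbp and Nfil3 had r = -0.82 and rho = -0.74 (permutation p = 0.00013, adjusted p = 0.000433), Dbp and Tef r = 0.78 and rho = 0.75 (permutation p = 0.00052, adjusted p = 0.0013), and Tef and Hlf r = 0.70 and rho = 0.69 (permutation p = 0.002, adjusted p = 0.00444). Without the 2 farthest mice these were -0.72, 0.67 and 0.64, and within the cage sets they were -0.79, -0.78 and -0.92, then 0.96, 0.64 and 0.68, then 0.67, 0.47 and 0.83. Tef and Nfil3 had r = -0.55 (permutation p = 0.0153, adjusted p = 0.0263). Their rho of -0.48 missed the threshold (permutation p of rho = 0.0296, adjusted p = 0.0538). Their r fell short as well without WT mouse 3 (r = -0.54), 4 (r = -0.48), 8 (r = -0.39) or 17 (r = -0.51). Without the 2 farthest mice it was -0.36, and within the cage sets -0.63, -0.50 and -0.53. Dbp and Hlf (r = 0.33, rho = 0.42, permutation p = 0.24, adjusted p = 0.266) and Hlf and Nfil3 (r = -0.10, rho = -0.13, permutation p = 0.677, adjusted p = 0.677) were not related past the threshold. Differences between KO and WT in these relations were not tested.

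**Figure D5:**
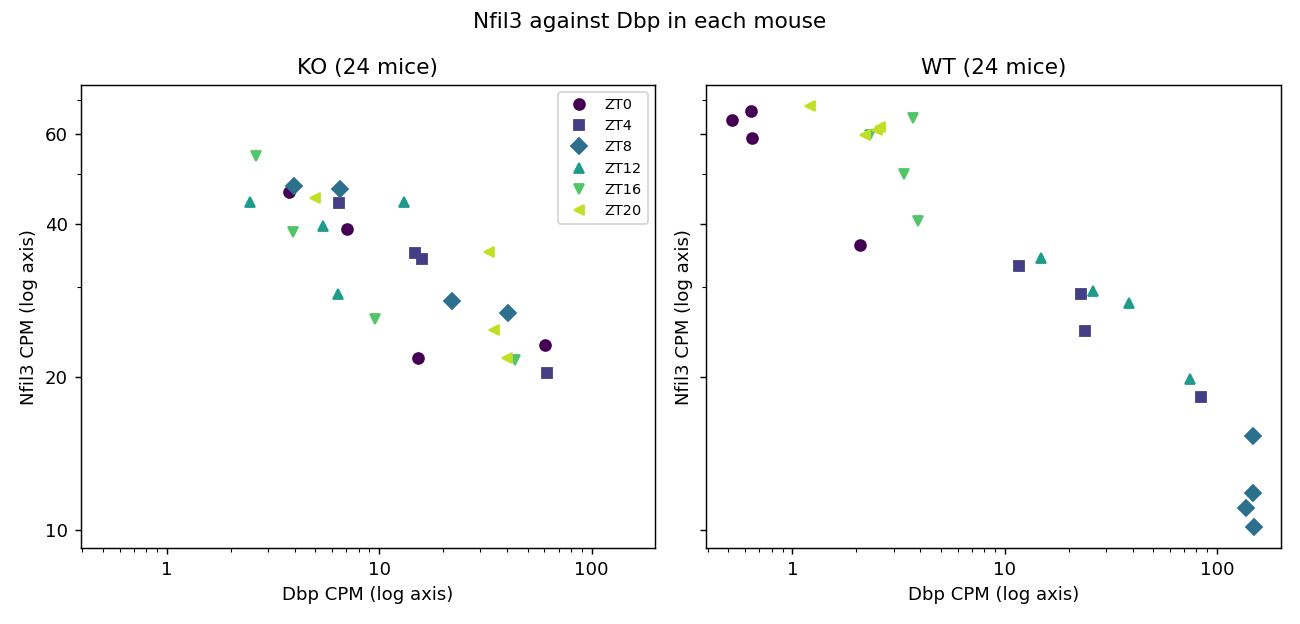
Nfil3 CPM against Dbp CPM (both log axes) in each of 24 KO mice and 24 WT mice, with marker shape and colour for time of day. KO mice of every time lie along 1 falling band (Dbp 2.46 to 61.8 CPM), and WT mice form a longer band with ZT8 at the lower right (Dbp 136.6 to 149.9 CPM) and ZT0 and ZT20 at the upper left (Dbp 0.522 to 2.58 CPM).

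Arntl, the gene targeted in KO, had 4.60 to 25.6 CPM in KO mice and 0.979 to 47.8 CPM in WT mice, with no call over the average of the times (log2 difference -0.049 ± 0.20, edgeR adjusted p = 0.916). Its single times went both ways, and it was called higher in KO at ZT8 (3.23 ± 0.56, adjusted p = 0.000235) and lower at ZT20 (-2.12 ± 0.49, adjusted p = 0.0196). The count covers the whole gene and not the deleted part, so it does not check the genotype, which is taken from the labels. Across KO mice its deviations ran with those of Nfil3 (r = 0.81, rho = 0.84, permutation p = 0.00032, adjusted p = 0.000914) and against those of Tef (r = -0.88, rho = -0.87, permutation p = 1e-05, the smallest possible here, adjusted p = 0.0001). Without the 2 farthest mice these were 0.77 and -0.86, and within the cage sets 0.96, 0.58 and 0.84 for Nfil3 and -0.91, -0.89 and -0.91 for Tef. With Dbp it had r = -0.88 (rho = -0.85, permutation p = 0.0001, adjusted p = 0.000433), -0.84 without the 2 farthest mice and -0.96, -0.69 and -0.95 within the cage sets. With Hlf no relation passed, at r = -0.33 in KO mice (rho = -0.32, permutation p = 0.171, adjusted p = 0.201) and -0.14 in WT mice (rho = -0.18, permutation p = 0.569, adjusted p = 0.599). In WT mice Arntl and Nfil3 had r = 0.58 (rho = 0.44, permutation p = 0.0158, adjusted p = 0.0263), Arntl and Tef r = -0.50 (rho = -0.45, permutation p = 0.03, adjusted p = 0.0462), and Arntl and Dbp r = -0.74 (rho = -0.51, permutation p = 0.00415, adjusted p = 0.0083). The permutation test of rho gave adjusted p of 0.0852, 0.0636 and 0.0411 for these pairs in WT mice, so by rho only Arntl and Dbp passed. Without WT mouse 8 none of these 3 WT relations passed, at r = 0.47, -0.26 and -0.62. The first also fell short without WT mouse 17 (r = 0.46) or 23 (r = 0.53), and the second without any of 12 WT mice in turn, with r between -0.52 and -0.26. Without the 2 farthest mice they were 0.31, -0.21 and -0.52, and within the cage sets 0.63, 0.72 and 0.34 with Nfil3, -0.89, -0.53 and 0.018 with Tef, and -0.86, -0.88 and -0.40 with Dbp.

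Over all 48 mice the genes most like each member were ranked by Pearson's r of log2 CPM among 11378 genes with a mean of at least 1 CPM. These values describe the samples, which share time of day and genotype, and carry no test. Dbp was most like Nr1d2, which encodes the nuclear receptor REV-ERB beta (r = 0.89), followed by Gm129 (0.88), Tef (0.87) and Fam76a (0.85), and Nfil3 was among the genes most opposite to it (-0.92). Within genotypes the likeness of Dbp and Nr1d2 was 0.89 in KO and 0.89 in WT, and that of Dbp and Nfil3 was -0.83 in KO and -0.95 in WT. Tef was most like the clock gene Per3 (0.96), followed by Gm129 (0.92), Coq10b (0.91) and Slc12a4 (0.90), and most opposite to Rnf144a (-0.88) and Clpx, a mitochondrial protease subunit (-0.87). Hlf was most like Pdxk, the kinase that makes the active form of vitamin B6 (0.83), then Usp2 (0.80), Ak4 (0.79) and Tnks1bp1 (0.79), and most opposite to Gbp6 (-0.77) and Tmem218 (-0.77). Among the genes most like Nfil3 were Pnrc1 (0.92), Arntl (0.89) and St5 (0.84), and Nfil3 was most opposite to Dbp (-0.92) and Tbc1d10a (-0.87). Among the genes named here for Hlf the likeness was lower in KO than in WT, at 0.47 in KO and 0.88 in WT for Usp2 and -0.29 in KO and -0.85 in WT for Gbp6.

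Clock genes with known D-box elements are counted next: Per1, Per2 and Per3, Nr1d1, Nr1d2, Rora and Cry1. All 7 were tested, and the 24 h rhythm differed between KO and WT for 6 of them (edgeR, all except Rora at an adjusted p of 0.528), against 22.8% of all tested genes, with a median amplitude of 0.20 in KO mice and 1.69 in WT mice. The 4 with the smallest p were Nr1d1, which encodes REV-ERB alpha (amplitude 0.51 in KO and 3.05 in WT, adjusted p = 2.81e-08), Nr1d2 (0.39 in KO and 1.62 in WT, adjusted p = 5.93e-08), Per2 (0.20 in KO and 1.69 in WT, adjusted p = 1.75e-07) and Per3 (0.73 in KO and 1.81 in WT, adjusted p = 9.91e-07). At ZT0 Per1, Per2 and Per3 were called higher in KO, against 1.06% of all genes, and at ZT12 Per2, Per3 and Nr1d2 were called lower, against 5.12%. At ZT8 Cry1 was called higher (1.40, adjusted p = 0.0192), against 3.78% of all genes, and Nr1d1 and Nr1d2 lower, against 4.08%. Nr1d1 and Nr1d2 were called higher at ZT16 and ZT20, against 2.6% and 0.647%. At ZT4, where Dbp was not called, Per2, Per3 and Cry1 were called higher, against 1.90% of all genes, and Nr1d1 lower, against 1.89%. Averaged over the times, 2 of the 7 were called higher in KO (Per1 by 0.67 ± 0.20, adjusted p = 0.0247, and Per3 by 0.59 ± 0.19, adjusted p = 0.0369), against 4.94% of all genes. These genes also carry other clock elements, and the part of D-boxes was not tested.

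Among genes of the E-box positive arm, Arntl, Clock and Npas2, all 3 had a rhythm that differed between KO and WT and all 3 were called higher in KO at ZT8, as Nfil3 was, against 22.8% and 3.78% of all genes. The median amplitude of the 3 was 0.19 in KO mice and 2.03 in WT mice. Npas2, a partner of BMAL1 that can stand in for CLOCK, had a rhythm that passed in KO (edgeR adjusted p = 0.0427), where 0.984% of all tested genes passed. Its amplitude was 1.19 in KO and 3.52 in WT (adjusted p of the difference 8.46e-09), and its peak was at ZT15.6 in KO and ZT22.3 in WT. This KO call was not followed in the other fits. Among 7 E-box repressors (Per1, Per2, Cry1, Cry2, Bhlhe40, Bhlhe41 and Gm129) all 7 rhythms differed, with a median amplitude of 0.20 in KO mice and 1.51 in WT mice, and 5 were called higher in KO at ZT0, against 22.8% and 1.06% of all genes. At ZT12 3 of the 7 were called lower (Per2, Bhlhe40 and Gm129), against 5.12% of all genes. Those with the smallest p besides Per2 were Gm129, also called Chrono (amplitude 0.59 in KO and 3.34 in WT, adjusted p = 5.62e-07), Per1 (0.12 in KO and 1.84 in WT, adjusted p = 4.99e-05) and Cry1 (0.20 in KO and 1.48 in WT, adjusted p = 7e-05). Nr1d1 and Nr1d2, the REV-ERB repressors that act at RORE sites and so on Nfil3, were both called lower in KO at ZT8, where Nfil3 was called higher, with log2 differences of -3.02 for Nr1d1 (adjusted p = 0.00339) and -1.22 for Nr1d2 (adjusted p = 0.0224). At ZT20 both were called higher in KO, Nr1d1 by 3.25 (adjusted p = 0.0144) and Nr1d2 by 2.12 (adjusted p = 0.00265). They were also called at times at which Nfil3 was not: both higher at ZT16 (3.43 for Nr1d1, adjusted p = 0.00403, and 1.33 for Nr1d2, adjusted p = 0.0195), Nr1d1 lower at ZT4 (-2.47, adjusted p = 0.0247) and Nr1d2 lower at ZT12 (-1.16, adjusted p = 0.024). At ZT20 too the difference of Nfil3 missed the threshold, and the part of these repressors in the level of Nfil3 was not tested.

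Known liver targets of the PAR bZIP factors numbered 18, of which 17 were tested, since no row of the count table was found under the symbol Alb. The rhythm passed in WT for 7 of 17, against 48.1% of all tested genes, and the difference in rhythm between KO and WT for 8 of 17, against 22.8%. The median amplitude was 0.31 in KO mice and 0.42 in WT mice, against 0.114 in KO mice and 0.182 in WT mice over all tested genes. The 4 with the smallest p were Cyp2a5, a coumarin hydroxylase (amplitude 0.31 in KO and 1.4996 in WT, adjusted p = 4.76e-08), Por, the electron donor of microsomal P450 enzymes (0.26 in KO and 0.91 in WT, adjusted p = 1.43e-05), Ppara, a nuclear receptor of fatty acid oxidation (0.33 in KO and 0.39 in WT, adjusted p = 0.00021), and Alas1, the first enzyme of heme synthesis (0.41 in KO and 1.60 in WT, adjusted p = 0.00118). Ppara differed in its curve without much difference in amplitude, and its WT peak was at ZT10.5, as for Tef.

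Of the 17 tested targets, 3 were called higher in KO at ZT0, against 1.06% of all tested genes. At ZT8 2 were called higher and 2 lower, against 3.78% and 4.08%. At ZT12 2 were called higher and 4 lower, against 6.59% and 5.12%. At ZT20 0 were called higher and 0 lower, against 0.647% and 0.404%. Cyp2a5 had the direction of Dbp and Tef at ZT0, ZT8 and ZT12, with log2 differences of 1.47 (adjusted p = 0.00847), -1.37 (adjusted p = 0.00337) and -1.66 (adjusted p = 0.000306). It was also called lower in KO at ZT16 (-1.35, adjusted p = 0.00637), where no activator was called. Por was called higher in KO at ZT0 (0.98, adjusted p = 0.019) and lower at ZT12 (-1.34, adjusted p = 0.000101), and Alas1 higher at ZT0 (1.83, adjusted p = 0.0366). Ppara was called lower in KO at ZT8 (-0.78, adjusted p = 0.0262) and ZT12 (-0.94, adjusted p = 0.00529), and Abcb1a at ZT12 (-1.24, adjusted p = 0.00999). Other targets went against Dbp and Tef. Higher in KO at ZT8 were Cyp2b10 (1.18, adjusted p = 0.0253) and Cyp2c37 (0.80, adjusted p = 0.0367). Higher at ZT12 were Cyp2c37 (0.78, adjusted p = 0.0312) and Cyp2c50 (0.97, adjusted p = 0.00119). Over the average of the times Cyp2c37 (0.67 ± 0.10, adjusted p = 1.2e-05) and Cyp2c50 (0.53 ± 0.08, adjusted p = 1.91e-05) were called higher in KO, against 4.94% of all genes. Acot1 was called lower (-0.52 ± 0.13, adjusted p = 0.00899), against 3.92%. These 3, Cyp2b10 and Abcb1a are named because the counts are small, with their values seen. Cyp2a4 and Cyp2a5, the Cyp2b and Cyp2c genes and the Acot genes have close copies, and how reads that match several copies were counted is not given in the sources used here, so their values are uncertain.

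Of 7 related bZIP factors of the C/EBP and ATF families, 6 had a 24 h rhythm that passed in WT, against 48.1% of all tested genes. The rhythm differed between KO and WT for 1 of the 7, Atf5 (amplitude 0.28 in KO and 0.58 in WT, edgeR adjusted p = 2.53e-05), against 22.8% of all tested genes. Atf5 was called higher in KO at ZT12 (1.497, adjusted p = 3.3e-06) and over the average (0.27 ± 0.08, adjusted p = 0.0292). At ZT8 Cebpa was called lower (-0.57, adjusted p = 0.00806) and Atf4 higher (0.36, adjusted p = 0.0264). The median amplitude of the 7 was 0.14 in KO mice and 0.36 in WT mice.

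Library totals lay between 33562272 and 34035644 counts. Averaged over genes, replicates differed from each other by 30.3 to 171.1 times the variance of counting. This average does not describe single genes with few counts, for which the part of counting noise was not tested. The lowest count of a member in any library was 19, for Dbp in a WT mouse of ZT0. Hepatocyte markers, 7 of them in the table, summed to 15322 to 25978 CPM in KO mice and 13779 to 26713 CPM in WT mice over all times. Markers of NK and T cells, in which Nfil3 also acts, summed to 5.34 to 16.6 CPM in KO mice and 6.63 to 17.2 CPM in WT mice, and macrophage markers to 566.4 to 1637 CPM in KO mice and 712.1 to 1396 CPM in WT mice. Sums over B cell, endothelial, stellate cell and cholangiocyte markers also overlapped between the genotypes. At single times the endothelial marker Kdr was called lower in KO at ZT12 (-0.36, adjusted p = 0.0315) and Lyve1 higher at ZT4 (1.08, adjusted p = 0.00425), and the stellate cell marker Pdgfrb lower at ZT0 (-0.55, adjusted p = 0.0391). Over the average Apoa1 was called higher (0.33, adjusted p = 0.0194) and Kdr (-0.18, adjusted p = 0.0107) and the NK cell marker Ncr1 (-0.70, adjusted p = 0.0465) lower. These markers are named because the counts are small, with their values seen, and no marker of these lists was at 0 in all libraries. Their part in the differences above was not tested, and in whole liver fewer cells of a type and less RNA per cell cannot be told apart.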

How the data were processed

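The authors deposited 1 table of read counts for 23732 genes in 48 liver libraries. Per the submitters' processing notes, CASAVA (version not stated) and STAR 2.4.0f1 were used with genome build mm9. The gene models and the handling of reads that match several genes are not given in the sources used here. Per the labels' protocols, libraries were made from poly-A RNA with an unstranded kit. The deposited totals differ by little (33562272 to 34035644, median 33855278), so the libraries had been brought to a common depth by a step that is not described, and the number of reads sequenced is unknown. Table columns give the same hours as CT that the labels give as ZT.

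Counts were filtered with filterByExpr (minimum count 10, 14836 genes kept with 99.98% of counts), scaled by TMM and tested with edgeR 4.0.16 in R 4.3.3 (glmQLFit, glmQLFTest) with 1 mean for each of 12 groups of 4 mice, or with a 24 h curve (cosine and sine) in each genotype. CPM uses TMM-scaled library sizes, and log2 CPM a prior count of 2. The spread was tested with limma 3.58.1. Alternatives used DESeq2 1.42.0, limma with voom weights (also with cage as a random block), other scalings, no filter, body weight, added 12 h terms and left-out mice. The tests were also run on simulated data. The simulated counts of all genes had the same dispersion between mice, unlike the real genes, and no result here rests on those runs. No p was adjusted over the 4 genes or a list alone. Named genes are the 4 members, the 4 most and 2 least alike genes of each (predicted genes other than Gm129 skipped), Arntl, and up to 4 genes per list with the smallest p of the rhythm difference. Some genes that this rule names, and the counts of the list of RORE factors, are not reported here. The members and lists were chosen with earlier results of these data known. Mice are separate animals, but the cages fall into 3 sets by time (ZT4 with ZT8, ZT12 with ZT16, ZT20 with ZT0), so time and cage set cannot be told apart in the rhythm tests, while KO minus WT at 1 time lies within a set. Of 19 cages, 11 held both genotypes, and 10 mice lived alone.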

Additional observations from a re-analysis of the deposited data

Results flagged for a closer look

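In 8 of the 48 groups of 4 mice (4 genes, 12 groups each), 1 mouse lay far from the other 3 by Dixon's test at the 95% level; chance flags about 1 in 20 groups. For Dbp these were KO mouse 26 of ZT16 (43.5 CPM, with the others at 2.62 to 9.57), WT mouse 48 of ZT0 (2.08 CPM, others 0.522 to 0.648), WT mouse 8 of ZT4 (84.4 CPM, others 11.7 to 23.8) and WT mouse 11 of ZT8 (136.6 CPM, others 147.7 to 149.9). For Tef these were KO mouse 26 of ZT16 (201.3 CPM, others 91.3 to 105.2), KO mouse 37 of ZT20 (119.7 CPM, others 193.1 to 197.7) and WT mouse 16 of ZT8 (362.2 CPM, others 289.5 to 296.4). For Hlf it was WT mouse 42 of ZT0 (79.7 CPM, others 58.4 to 59.6). KO mouse 26 stood out in both Dbp and Tef, and no Nfil3 group had such a mouse.

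KO minus WT differed between the 6 times for all 4 genes, with an adjusted p (edgeR) of 1.04e-05 for Dbp, 1.35e-07 for Tef, 0.00055 for Hlf and 1.16e-05 for Nfil3. The 24 h rhythm differed between KO and WT for all 4 too, with an adjusted p of 4.76e-07 for Dbp, 4.76e-08 for Tef, 2.06e-05 for Hlf and 1.79e-06 for Nfil3.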

How the results depend on the processing

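Values are log2 differences KO minus WT unless named otherwise, and the cause of the changes below was not tested. With DESeq2, Tef at ZT4 (0.78) and Nfil3 at ZT20 (-0.98) passed the threshold. With limma and voom weights these passed (0.85 and -1.04), as with cage as a random block (0.87 and -1.05), while Dbp was lost at ZT0 (3.88, and 3.88 with the block) and ZT20 (3.42, and 3.39 with the block) and the average of Nfil3 turned to -0.023 (-0.034 with the block). With total counts and no scaling factors, Tef at ZT4 (0.84) and Nfil3 at ZT20 (-1.03) passed and Tef at ZT16 turned to 0.034. With body weight, Dbp at ZT12 was lost (-2.38) and Tef at ZT16 turned to 0.017. In the 11 cages with both genotypes and cage as a fixed term, which pairs KO and WT cage mates, the averages were 0.158 for Dbp (0.72 over all mice), 0.015 for Tef (0.24), -0.127 for Hlf (-0.059) and -0.107 for Nfil3 (0.011), and none passed in either fit. These cages are spread unevenly over the times, whereas the values over all mice weight each time equally. The averages are therefore unlike measures, and an effect of the pairing itself was not tested. Without the 4 KO libraries named in the report, Dbp (-2.71) and Hlf (-0.49) at ZT12 were lost, Nfil3 at ZT20 passed (-0.98) and the average of Nfil3 was -0.032. Within cage sets, r of WT Arntl turned to 0.27 (ZT12 with ZT16) and 0.34 (ZT20 with ZT0) for Hlf and 0.018 for Tef (ZT20 with ZT0). The rhythm difference and the interaction of all 4 members kept their calls in every alternative run.

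Leaving out each mouse in turn gave these ranges where a call or direction changed. For Dbp they were 3.14 to 5.15 (ZT0), -1.52 to 0.35 (ZT4), -3.75 to -2.66 (ZT8), -3.02 to -1.95 (ZT12) and 3.52 to 4.08 (ZT20). For Tef they were 0.63 to 1.13 (ZT4), -1.13 to -0.81 (ZT8), -0.35 to 0.12 (ZT16), 0.89 to 1.18 (ZT20), 0.18 to 0.30 (average) and, for the spread, -0.019 to 0.059. For Nfil3 they were -1.20 to -0.84 (ZT20) and -0.038 to 0.040 (average). In KO mice r was 0.31 to 0.59 (Dbp and Hlf), 0.35 to 0.66 (Tef and Hlf) and -0.61 to -0.40 (Hlf and Nfil3). In WT mice r was -0.65 to -0.39 (Tef and Nfil3), -0.21 to 0.069 (Hlf and Nfil3), -0.80 to -0.62 (Arntl and Dbp), -0.59 to -0.26 (Arntl and Tef), -0.37 to 0.078 (Arntl and Hlf) and 0.46 to 0.66 (Arntl and Nfil3).

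Counts over all genes that moved by more than 1.5 times were as follows. Rhythmic genes in KO numbered 146, but 437 with DESeq2, 344 with 12 h terms, 57 with voom weights, 28 without the filter, and 3 to 473 without single mice. At ZT0 249 were called, but 494 with DESeq2, 414 with total counts, 161 without the filter, 145 with body weight and 74 without the 4 KO libraries. Without those libraries ZT4 had 1008 in place of 563, ZT12 836 in place of 1737, ZT16 1230 in place of 796 and ZT20 318 in place of 156. DESeq2 called 327 at ZT20. The average had 1314, but 711 with body weight and 196 within mixed cages, which hold fewer mice and weight the times unequally. A wider spread in KO or WT was called for 2 genes, 18 from the group mean, 1 with prior count 0.5, 1 with total counts and 0 without the 4 KO libraries. Single mice moved the counts to 64 to 629 (ZT0), 203 to 723 (ZT4), 613 to 1439 (ZT8), 1036 to 2250 (ZT12), 306 to 1042 (ZT16), 41 to 220 (ZT20) and 0 to 3 (spread). Mouse numbers do not recur between groups, so the cage was the only pairing of KO with WT mice.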
